A study of Homo sapiens with 24 samples.

Results

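The elastic microfibril and LOX genes were followed here as 10 genes, MFAP5, MFAP2, FBN1, FBN2, ELN, LOX, LOXL1, LOXL2, LTBP1 and LTBP2, among the 36468 entries of the count table. They were chosen by symbol, with the first entry taken for each symbol. Earlier results of these data were known when the list was chosen. All 10 passed the filter of a total of at least 10 counts over the libraries of a fit. The counts came from 24 libraries of sensory neuron cultures made from H9WAO9, an established human embryonic stem cell line that is wild type by its label. Cells were taken through vagal neural crest spheroids to sensory neurons and were matured before treatment. Each of 6 batches gave 1 library of each of 4 groups, so that every group held 6 libraries. Vehicle cultures received 0.1% bovine serum albumin in PBS. TGF-β was given at 2 ng/ml, and IL-4+IL-13 at 10 ng/ml IL-4 with 3 ng/ml IL-13, both for 5 days in the same carrier. The dose and duration of IL-6 are not given in the sources used here. All groups come from 1 cell line, so the batches are separate differentiations and not separate donors. The labels do not say that the cultures were sorted, and RNA came from whole cultures.

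Elastic fibres are built from an elastin core on a scaffold of microfibrils. Fibrillins (FBN1, FBN2) form the microfibril backbone, and the small glycoproteins MFAP2 and MFAP5 bind to it. ELN encodes tropoelastin, the soluble precursor of elastin. LOX, LOXL1 and LOXL2 encode secreted copper enzymes that oxidise lysines and thereby cross-link elastin and collagen. LTBP1 is a latent TGF-β binding protein that ties latent TGF-β to the matrix, and LTBP2, a relative that does not bind latent TGF-β, associates with fibrillin microfibrils. TGF-β is a classic inducer of matrix genes in fibroblasts, while IL-4 and IL-13 are the core cytokines of type 2 inflammation and signal through STAT6.

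Library totals ran from 33342682 to 39817784 counts, with a median of 35775100. Neuron markers (10 genes, none absent from all 24 libraries) summed to between 49224 and 278971 normalized counts. Mesenchymal markers (10 genes, none absent from all 24 libraries) summed to between 97032 and 492675, so both kinds of RNA were present. After group means were removed, 5 of the 24 libraries correlated better with another batch than with their own over 16890 genes. The Vehicle library of batch 2 had a mean correlation of 0.0155 with its own batch and 0.554 with batch 4. The Vehicle library of batch 4 had 0.173 with its own batch and 0.502 with batch 2. The other 3 libraries of batch 4 were closer to batch 3. The cause was not tested, and the fold changes of both treatments against Vehicle are therefore also given without batches 2 and 4. As a check of the labels, CISH, a STAT target, was higher with IL-4+IL-13 than with Vehicle in all 6 batches (log2 fold change 4.36, SE 0.41, edgeR), and ALOX15 and CCL26 also passed. SMAD7 and TGFBI did not pass with TGF-β (log2 fold changes 0.16 and 0.83), nor did SOCS3, BCL3 and STAT3 with IL-6 (0.09, -0.22 and -0.20), so these genes do not check those labels.

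Counts per library were divided by size factors (normalized counts), and genes were compared with each other only per kilobase of their reference transcript. MFAP2 has 2 entries in the count table, and for this order both were summed, since the first holds the smaller part of its reads. In Vehicle the median level per kilobase was 4085 normalized counts for ELN and 3206 for MFAP2 (both entries). FBN1 followed with 1421, LOXL1 with 1271, FBN2 with 893 and LTBP1 with 870.1. LTBP2 had 684, LOX 592 and LOXL2 591. MFAP5 was far lower, at 18.3 normalized counts per kilobase. Of these neighbours, MFAP2 from both entries was above FBN1 and LOXL2 above MFAP5 in 6 of 6 batches. Every other neighbouring pair changed order between batches, so their ranks did not differ beyond the spread between batches.

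**Figure D1:**
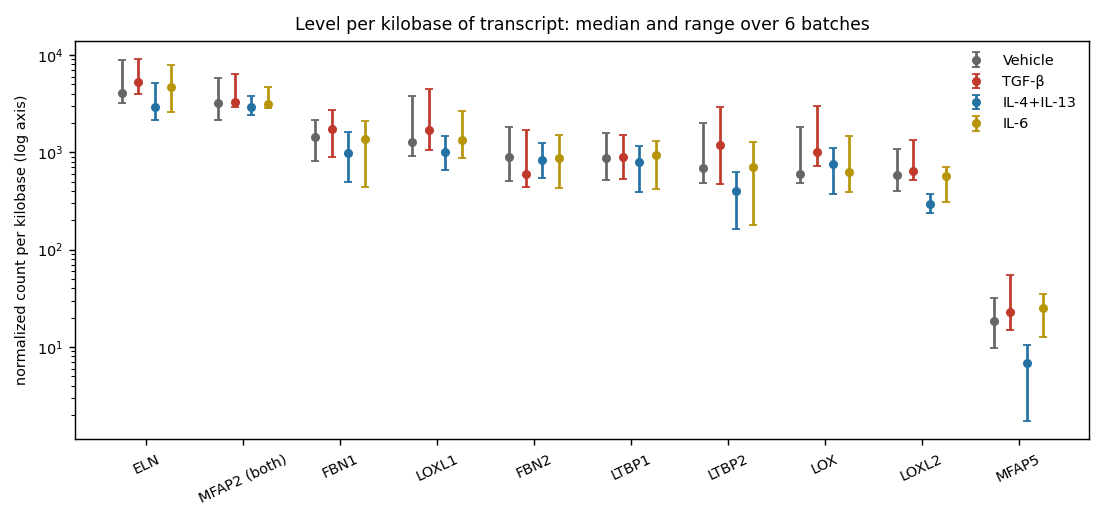
Normalized counts per kilobase of transcript (log axis) for the 10 genes, with MFAP2 from both entries summed, in each of the 4 groups. Points are medians and bars run from the lowest to the highest of 6 batches. ELN and the summed MFAP2 lie at the top and MFAP5 far below the other genes in each group.

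The genes lie apart in the genome (GRCh38). MFAP2 is on chromosome 1 from 16974502 to 16981583, LTBP1 on chromosome 2 from 32946953 to 33399509, LOX on chromosome 5 from 122063195 to 122078259, and FBN2 on chromosome 5 from 128257909 to 128538245. ELN is on chromosome 7 from 74028173 to 74069907, and MFAP5 on chromosome 12 from 8645943 to 8662826. LTBP2 is on chromosome 14 from 74498183 to 74612237, FBN1 on chromosome 15 from 48408313 to 48645709, and LOXL1 on chromosome 15 from 73926462 to 73952136. The LOX gene lies wholly inside the span of SRFBP1 (15065 shared bases). SRFBP1 averaged 385 counts a library, 8.48% of the LOX count, and had a log2 fold change of 0.16 with TGF-β against Vehicle. ELN, LOXL1 and LOXL2 each overlap an antisense RNA, and whether the counting used strand is not given in the sources used here.

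Upstream sequences are shown for LOX, the member with the smallest p for TGF-β against Vehicle, and for LTBP2, which differed between TGF-β and IL-4+IL-13. The window of LOXL1, a LOX relative whose level followed most of the other members, is also shown. LOXL2 followed them about as closely, but no window was available for it. Each is the 250 bases before the annotated start (RefSeq, GRCh38.p14), written 5′ to 3′ on the gene's strand. Capitals mark the letters of the SMAD box CAGAC, read here on the opposite strand.
LOX (chr5:122078260-122078509, minus strand): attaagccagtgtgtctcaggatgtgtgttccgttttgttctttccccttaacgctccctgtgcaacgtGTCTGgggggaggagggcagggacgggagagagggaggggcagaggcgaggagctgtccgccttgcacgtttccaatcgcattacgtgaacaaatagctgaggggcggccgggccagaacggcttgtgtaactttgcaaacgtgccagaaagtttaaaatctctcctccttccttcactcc
LOXL1 (chr15:73926212-73926461, plus strand): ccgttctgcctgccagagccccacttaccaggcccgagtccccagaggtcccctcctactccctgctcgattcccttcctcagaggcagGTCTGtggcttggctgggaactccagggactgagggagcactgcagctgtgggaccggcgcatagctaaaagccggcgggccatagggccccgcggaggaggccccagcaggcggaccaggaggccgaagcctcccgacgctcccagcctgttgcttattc
LTBP2 (chr14:74612238-74612487, minus strand): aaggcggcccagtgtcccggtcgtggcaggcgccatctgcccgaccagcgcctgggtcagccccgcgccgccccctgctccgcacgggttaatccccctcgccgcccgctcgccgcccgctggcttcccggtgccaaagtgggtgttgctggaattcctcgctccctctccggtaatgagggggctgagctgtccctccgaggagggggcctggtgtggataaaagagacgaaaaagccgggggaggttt

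4 motifs were searched on both strands, and matches could overlap. LOX held 1 CAGAC match that begins 181 bases upstream of the start, and LOXL1 held 1 at 161 bases. LTBP2 held none, and none of these 3 windows held the AP-1 letters TGANTCA, the STAT letters TTCNNNNGAA or TATAAA. Of the windows not printed, LTBP1 held 2 CAGAC matches, at 85 and 61 bases, MFAP2 held 2 TGANTCA matches, at 145 and 60 bases, and FBN2 held no match to any of the 4. Of 35116 human promoters of this length, 38.0% held CAGAC, 6.57% TGANTCA, 5.38% TTCNNNNGAA and 10.7% TATAAA. A match of letters is not a bound site.

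Treatment groups were compared within batches with edgeR over all entries tested, and a call needed an adjusted p under 0.05 together with a log2 fold change beyond 1 either way. With TGF-β against Vehicle, 0 of the 10 members were called, beside 0.0209% of 28701 entries. With IL-4+IL-13 against Vehicle, 2 members were called, MFAP5 and LOXL2, both lower, beside 0.0801% of entries called lower. With TGF-β against IL-4+IL-13, 3 were called, MFAP5, LOXL2 and LTBP2, all higher with TGF-β, beside 0.348% of entries called higher. These 3 comparisons share their libraries pairwise, so their calls are not independent of one another. The median log2 fold change of the 10 members was 0.26 with TGF-β and -0.48 with IL-4+IL-13 against Vehicle, and 0.75 between TGF-β and IL-4+IL-13. In bulk RNA, fewer cells of a type and less RNA per cell cannot be told apart.

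**Figure D2:**
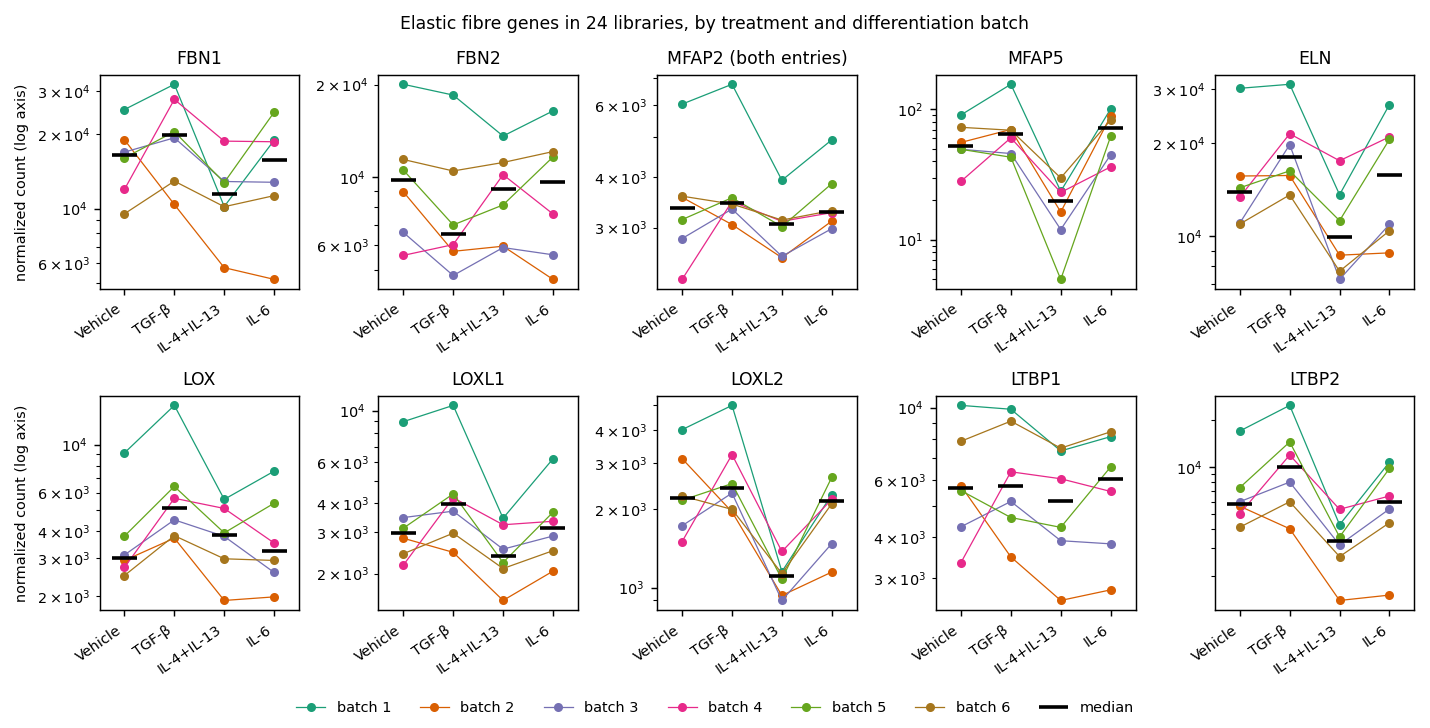
Normalized counts (log axis) of each gene in the 24 libraries by treatment. Lines join libraries of 1 batch and black bars are medians over 6 batches. MFAP5 and LOXL2 are lowest with IL-4+IL-13 in 6 of 6 batches, while batch 1 is the highest in most panels.

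MFAP5 showed the largest difference of the microfibril genes. Its normalized count ran from 28.04 to 90.7 in Vehicle (median 52.6), from 43.0 to 156 with TGF-β (64.9), from 4.95 to 29.8 with IL-4+IL-13 (19.7) and from 36.2 to 101 with IL-6 (72.4). These are few reads, 5 to 140 raw counts a library, and MFAP5 is the shallowest member. The IL-4+IL-13 libraries lay below all TGF-β and all IL-6 libraries, and overlapped Vehicle only through the Vehicle library of batch 4. MFAP5 fell by 1.69 on the log2 scale with IL-4+IL-13 against Vehicle (SE 0.30, edgeR adjusted p = 0.0264, lower in 6 of 6 batches). The within-batch differences were -1.90, -1.72, -1.96, -0.27, -3.08 and -1.26 in batches 1 to 6. Without batches 2 and 4 the change was -2.01 (edgeR adjusted p = 0.0372), but leaving out any 1 of batches 1, 2, 3, 5 and 6 raised the adjusted p above 0.05, up to 0.185. Between TGF-β and IL-4+IL-13 it was 1.98 higher with TGF-β (SE 0.29, edgeR adjusted p = 0.00358), and this call held with each batch left out. TGF-β itself gave 0.29 against Vehicle (SE 0.27, higher in 3 of 6 batches), which did not pass.

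FBN1, the fibrillin of adult microfibrils, ran from 9528 to 25226 normalized counts in Vehicle (median 16498), from 10394 to 31930.2 with TGF-β (19946) and from 5761 to 18780.3 with IL-4+IL-13 (11478), and the groups overlapped. It was higher in the TGF-β than in the IL-4+IL-13 libraries in 6 of 6 batches, but the log2 fold change of 0.75 (SE 0.25) did not pass (edgeR adjusted p = 0.208). Against Vehicle FBN1 gave 0.23 with TGF-β and -0.51 with IL-4+IL-13 (SE 0.25 for both), and neither passed. FBN2, the fibrillin that dominates in development, had medians of 9759 normalized counts in Vehicle, 6516 with TGF-β and 9158 with IL-4+IL-13. Its log2 fold change with TGF-β against Vehicle was -0.31 (SE 0.15, edgeR adjusted p = 0.854, lower in 5 of 6 batches). With IL-4+IL-13 it was -0.13 (SE 0.15), and between TGF-β and IL-4+IL-13 -0.18 (SE 0.15). None of these passed.

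The first MFAP2 entry, which the choice by symbol takes, held 5.21% to 48.2% of the reads of both (median 14.2%), and the log2 levels of the entries correlated at -0.59 over 24 libraries. The first entry gave log2 fold changes of -0.25 with TGF-β and 0.55 with IL-4+IL-13 against Vehicle, with SEs of 0.63 and 0.64, whereas the second entry gave 0.27 and -0.30 (SE 0.18 for both). Both entries summed ran from 2239 to 6032 normalized counts in Vehicle, 3052 to 6747 with TGF-β and 2531 to 3921 with IL-4+IL-13. The sum gave 0.15 with TGF-β and -0.17 with IL-4+IL-13 against Vehicle (SE 0.11 for both). Between TGF-β and IL-4+IL-13 the sum was 0.32 higher (SE 0.11, edgeR adjusted p = 0.225), in 6 of 6 batches. The direction for MFAP2 therefore turned with the entry used, and how reads were divided between the entries is not given in the sources used here.

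ELN, the elastin gene, ran from 10966 to 30111 normalized counts in Vehicle (median 13878), 13617 to 31024 with TGF-β (18042), 7266 to 17565 with IL-4+IL-13 (9972) and 8850.1 to 26681 with IL-6 (15767). The groups overlapped, and batch 1 held the highest Vehicle, TGF-β and IL-6 value. Within batches ELN was higher with TGF-β than with Vehicle in 6 of 6, by 0.01 to 0.84, and the log2 fold change of 0.34 (SE 0.16) did not pass (edgeR adjusted p = 0.836). With IL-4+IL-13 against Vehicle it was -0.50 (SE 0.16, edgeR adjusted p = 0.415), lower in 5 of 6 batches. Between TGF-β and IL-4+IL-13 ELN was 0.84 higher with TGF-β (SE 0.16, edgeR adjusted p = 0.0174), past the p threshold and short of the fold threshold. That adjusted p was above 0.05 without any 1 of batches 3, 5 and 6, up to 0.105.

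**Figure D3:**
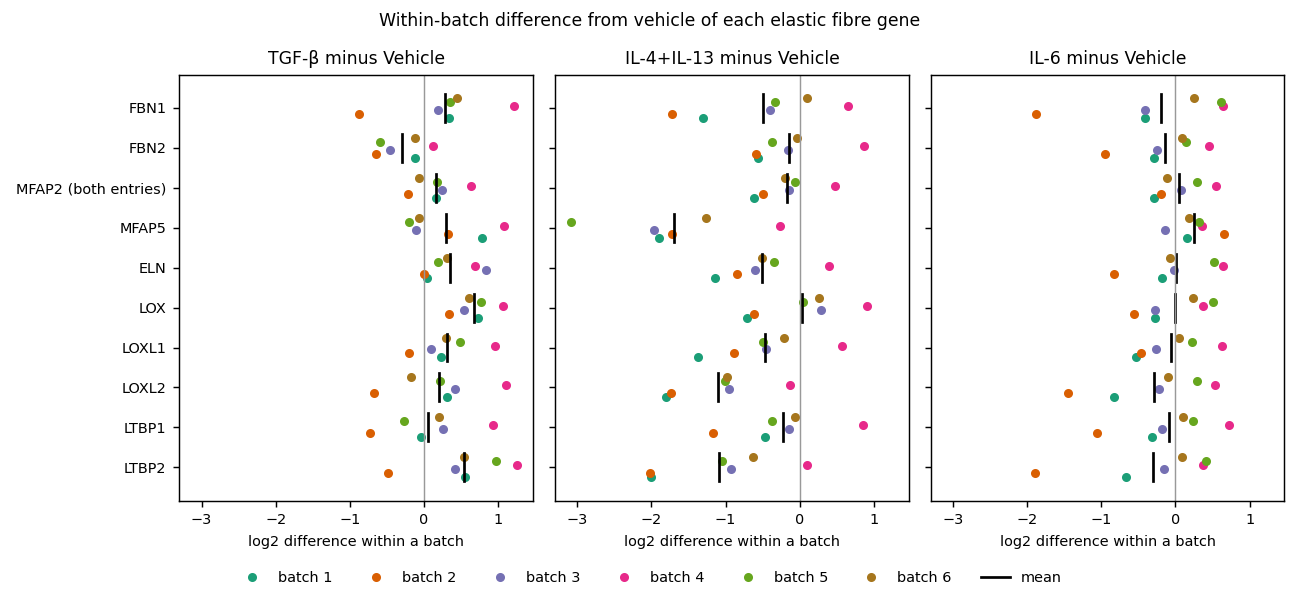
Log2 difference from the Vehicle library of the same batch for each gene, in 1 panel per cytokine treatment. Each point is 1 batch and the black line is the mean of 6. MFAP5 and LOXL2 lie left of 0 in 6 of 6 batches with IL-4+IL-13, and LOX lies right of 0 in 6 of 6 with TGF-β.

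Of the cross-linking enzymes, LOX had the smallest p of the members for TGF-β against Vehicle. Its normalized count ran from 2485 to 9152 in Vehicle (median 3005), 3698 to 15167 with TGF-β (5071), 1907 to 5585 with IL-4+IL-13 (3839) and 1981 to 7536 with IL-6 (3215). The groups overlapped, and batch 1 was the highest in each of the 4. Within batches LOX was higher with TGF-β than with Vehicle in 6 of 6, by 0.73, 0.34, 0.54, 1.06, 0.76 and 0.61 in batches 1 to 6. The log2 fold change was 0.67 (SE 0.17), short of the fold threshold, and it did not pass after adjustment over all entries (edgeR adjusted p = 0.224). DESeq2 put its adjusted p at 0.0288 but did not call it, for the same shortfall in fold. Without batches 2 and 4 the edgeR estimate was 0.66 (edgeR adjusted p = 0.37). IL-4+IL-13 gave 0.05 (SE 0.17) against Vehicle, with 4 of 6 batches higher.

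LOXL2, which also acts on basement membrane collagen, ran from 1500.5 to 4022 normalized counts in Vehicle (median 2200.3), 1948 to 4979.9 with TGF-β (2399.8), 893 to 1374 with IL-4+IL-13 (1105) and 1147 to 2643 with IL-6 (2136). Every IL-4+IL-13 library lay below every Vehicle and every TGF-β library. LOXL2 fell by 1.11 on the log2 scale with IL-4+IL-13 against Vehicle (SE 0.20, edgeR adjusted p = 0.0365, lower in 6 of 6 batches). The within-batch differences were -1.80, -1.74, -0.95, -0.13, -1.002 and -0.99 in batches 1 to 6, the smallest again in batch 4. Without batches 2 and 4 it was -1.16 (edgeR adjusted p = 0.0399), and leaving out any 1 of batches 1, 2, 3, 5 and 6 raised the adjusted p above 0.05, up to 0.21. Between TGF-β and IL-4+IL-13 it was 1.30 higher with TGF-β (SE 0.20, edgeR adjusted p = 0.00484, higher in 6 of 6 batches). That adjusted p was 0.0567 without batch 5 and under 0.05 without any other batch. TGF-β gave 0.19 against Vehicle (SE 0.20).

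LOXL1, the relative needed for elastin renewal, had medians of 2982 normalized counts in Vehicle, 3967 with TGF-β, 2387 with IL-4+IL-13 and 3124 with IL-6. Against Vehicle its log2 fold change was 0.29 with TGF-β (SE 0.18) and -0.46 with IL-4+IL-13 (SE 0.18, edgeR adjusted p = 0.578). It was higher in the TGF-β than in the IL-4+IL-13 libraries in 6 of 6 batches, by 0.75 (SE 0.18). That was short of the fold threshold, and just short of the p threshold in edgeR (edgeR adjusted p = 0.0541, DESeq2 adjusted p = 0.00336). LOX was higher by 0.61 (SE 0.17), also short of the fold threshold (edgeR adjusted p = 0.1, DESeq2 adjusted p = 0.0174). The 3 enzymes thus each had a higher TGF-β value in each batch, and LOXL2 is the one that passed both thresholds.

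LTBP2 had the widest range of the latent TGF-β binding protein genes. Its normalized count ran from 4103 to 17043 in Vehicle (median 5791), 4008 to 24914 with TGF-β (9971), 1386 to 5347 with IL-4+IL-13 (3353) and 1501 to 10749 with IL-6 (5942). Within each batch the TGF-β library exceeded the IL-4+IL-13 library, by 1.16 to 2.55 on the log2 scale. The log2 fold change between them was 1.60 (SE 0.24, edgeR adjusted p = 0.00439), and the adjusted p rose above 0.05 only without batch 5 (0.0614) among the 6 batches left out in turn. Against Vehicle LTBP2 was 0.52 with TGF-β (SE 0.24, edgeR adjusted p = 0.817, higher in 5 of 6 batches). With IL-4+IL-13 it was -1.08 (SE 0.24, edgeR adjusted p = 0.107, lower in 5 of 6 batches), and DESeq2 called it (DESeq2 adjusted p = 0.00129). Without batches 2 and 4 the edgeR estimate was -1.12 (edgeR adjusted p = 0.108). LTBP1 differed little from group to group, with medians of 5658 normalized counts in Vehicle, 5754 with TGF-β and 5171 with IL-4+IL-13. Its log2 fold change between TGF-β and IL-4+IL-13 was 0.27 (SE 0.18, edgeR adjusted p = 0.716), higher with TGF-β in 6 of 6 batches. Against Vehicle it was 0.03 with TGF-β and -0.25 with IL-4+IL-13 (SE 0.18 for both).

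Between TGF-β and IL-4+IL-13, 8 of the 10 members were higher with TGF-β in 6 of 6 batches, beside 4.59% of all entries. The exceptions were FBN2, higher in 1 batch, and the first MFAP2 entry, higher in 2. This comparison uses no Vehicle library in its within-batch differences. With TGF-β against Vehicle 2 of 10 (LOX and ELN) were higher in 6 of 6 batches, beside 1.7%, and with IL-4+IL-13 2 of 10 (MFAP5 and LOXL2) were lower in 6 of 6, beside 1.82%. Batch 4 gave the highest difference from Vehicle for 9 of the 10 members with TGF-β and for 10 with IL-4+IL-13 (MFAP2 from both entries). Batch 2 gave the lowest for 9 of them with TGF-β and 4 with IL-4+IL-13.

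Leaving out batches 2 and 4 moved several estimates against Vehicle that had not passed, and none of them passed then. With TGF-β they became 0.12 for MFAP5, 0.62 for LTBP2, 0.32 for FBN1, -0.33 for FBN2, 0.34 for ELN, 0.27 for LOXL1, 0.19 for LOXL2, 0.03 for LTBP1 and 0.56 for the first MFAP2 entry. With IL-4+IL-13 they became -0.64 for ELN, -0.45 for FBN1, -0.28 for FBN2, -0.61 for LOXL1, -0.26 for LTBP1, -0.0029 for LOX and 1.49 for the first MFAP2 entry. The first MFAP2 entry moved the most.

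The summed mesenchymal markers, as a sum and not marker by marker, moved in the same directions. They were higher in the TGF-β than in the IL-4+IL-13 libraries in 6 of 6 batches (mean log2 ratio 0.63, range 0.28 to 1.49), and lower with IL-4+IL-13 than with Vehicle in 5 of 6 (mean -0.47). Their sum ran from 151375 to 492675 normalized counts with TGF-β, 97032 to 234842 with IL-4+IL-13 and 117180 to 383615 in Vehicle. With TGF-β against Vehicle the sum was higher in 5 of 6 batches (mean 0.16), but 5 of 10 markers were above 0 and 5 below. With IL-4+IL-13 against Vehicle all 10 were below 0. Between TGF-β and IL-4+IL-13, 6 were above 0 and 4 below. Of the 10 markers, COL1A1, a fibrillar collagen gene, passed between TGF-β and IL-4+IL-13 (1.31, SE 0.28, edgeR adjusted p = 0.0275), while COL1A2, PDGFRA and DCN gave 0.07, -0.01 and -0.19. The neuron sum differed by 0.02 between TGF-β and IL-4+IL-13 (range -0.76 to 0.36). The glia sum was higher with TGF-β than with Vehicle in 6 of 6 batches (0.32), and lower with IL-4+IL-13 than with Vehicle in 6 of 6 (-0.14). It was higher with TGF-β in 6 of 6 when set against IL-4+IL-13 (0.46). Most of the 8 glia markers did not follow the TGF-β sum against Vehicle, with 3 above 0 (1 called) and 5 below. With IL-4+IL-13 against Vehicle 1 was above 0 and 7 below, and between TGF-β and IL-4+IL-13 5 were above and 3 below. The endothelial sum was lower in the TGF-β than in the IL-4+IL-13 libraries in 6 of 6 (-1.25). The part of these cell types in the members' differences was not tested.

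**Figure D4:**
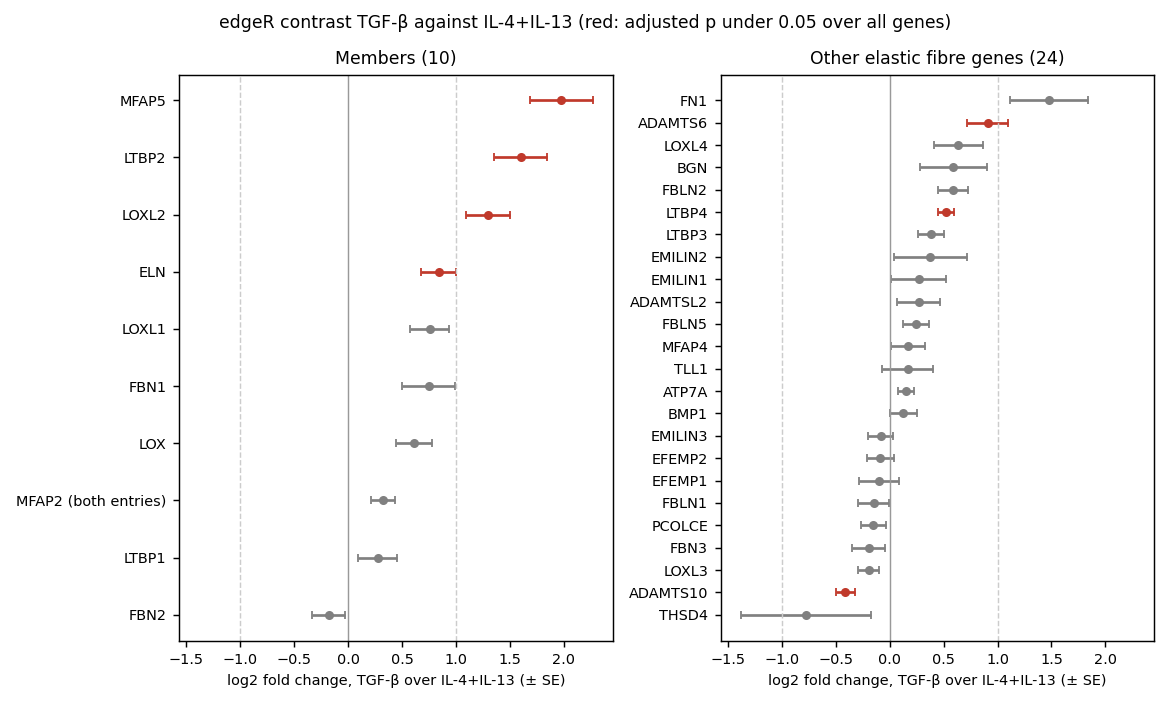
Log2 fold change of TGF-β over IL-4+IL-13 with its standard error (edgeR, 6 batches) for the 10 members, with MFAP2 from both entries, and for 24 other elastic fibre genes. Red points have an adjusted p under 0.05 and dashed lines mark the fold threshold of 1. MFAP5, LTBP2 and LOXL2 pass both thresholds, and ELN passes the p threshold.

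A list of 24 further elastic fibre genes was read from the same fits. Between TGF-β and IL-4+IL-13, edgeR called 0 of 24 and DESeq2 called 1, FN1, beside 257 and 444 of 28701 entries. In that comparison 15 of 24 had a log2 fold change above 0, with a median of 0.17. Of the 24, 5 were higher with TGF-β in 6 of 6 batches, beside 4.59% of all entries. FN1, the fibronectin gene, was 1.47 higher with TGF-β (SE 0.36, higher in 6 of 6 batches), with an adjusted p of 0.0633 in edgeR and 0.000861 in DESeq2. FBLN2 and LTBP3, also higher in 6 of 6 batches, had log2 fold changes of 0.59 (edgeR adjusted p = 0.0504, DESeq2 adjusted p = 0.00294) and 0.38 (edgeR adjusted p = 0.182). These 3 genes fall outside the rule for named genes and were chosen after their values were seen. LTBP4, which supports elastin assembly, was 0.52 higher with TGF-β (SE 0.07, edgeR adjusted p = 0.00237). ADAMTS6, a metalloprotease that binds microfibrils, was 0.91 higher (SE 0.19, edgeR adjusted p = 0.0284). Its relative ADAMTS10, which promotes fibrillin deposition, was 0.41 lower with TGF-β (-0.41, SE 0.09, edgeR adjusted p = 0.0257). ADAMTS10 was also 0.45 higher with IL-4+IL-13 than with Vehicle (SE 0.09, edgeR adjusted p = 0.0475) and 0.46 higher than with IL-6 (SE 0.09, edgeR adjusted p = 0.0147), in 6 of 6 batches each time. With TGF-β against Vehicle none of the 24 passed in edgeR, whereas DESeq2 put LTBP4 (DESeq2 adjusted p = 0.00103) and ADAMTS6 (DESeq2 adjusted p = 0.00567) under 0.05. Both were short of the fold threshold. In edgeR the 3 smallest p-values belonged to LTBP4, ADAMTS6 and LOXL4 (log2 fold changes 0.37, 0.84 and 0.62), each higher in 6 of 6 batches. With TGF-β against IL-6 none had an adjusted p under 0.05 in edgeR, and 4 did in DESeq2 (LTBP4, LOXL4, ADAMTS6 and FN1). Of these 4 only FN1 was also past the fold threshold, so DESeq2 called 1 of 24, beside 248 of 29377 entries. In edgeR the smallest p-values belonged to ADAMTS6, LTBP4 and LOXL4 (log2 fold changes 0.93, 0.33 and 0.89). With IL-6 against Vehicle none passed in either tool, and they belonged to ATP7A, FBLN5 and TLL1 (log2 fold changes -0.15, 0.23 and -0.44). Of 5 latent TGF-β genes, TGFB1 passed between TGF-β and IL-4+IL-13 (1.26, SE 0.28, edgeR adjusted p = 0.0361), and none passed against Vehicle.

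With IL-6 against Vehicle, 0 of 10 members and 0% of 29377 entries were called by edgeR. At an unadjusted p under 0.05, 1400 entries (4.77%) and 0 members passed, and DESeq2 called 120 entries (0.408%) and no member. The members' log2 fold changes ran from -0.33 for LTBP2 to 0.96 for the first MFAP2 entry, which was 0.05 for both entries summed. No member was higher or lower in 6 of 6 batches, beside 1.18% and 1.05% of entries. Set against IL-6, IL-4+IL-13 had 1 member called, MFAP5, which fell by 1.92 (SE 0.28, edgeR adjusted p = 0.00107), beside 0.0783% of entries called lower. LOXL2 was -0.82 (SE 0.21, edgeR adjusted p = 0.123, DESeq2 adjusted p = 0.00861), short of the fold threshold. Together with MFAP5, LTBP2, ELN and LOXL1 it was lower in 6 of 6 batches, 5 of 10 members beside 2.04% of entries. For TGF-β against IL-6, 0 members were called, beside 0.0306% of entries. LOX was 0.66 higher with TGF-β (SE 0.16, edgeR adjusted p = 0.129, DESeq2 adjusted p = 0.00908). LTBP2 was 0.81 higher (SE 0.24, edgeR adjusted p = 0.288, DESeq2 adjusted p = 0.0489). Both LOX and LTBP2 were short of the fold threshold. With LOXL1 they made 3 of 10 members higher with TGF-β in 6 of 6 batches, beside 3.62% of entries. The other log2 fold changes of TGF-β against IL-6 were 0.37 for LOXL1, 0.48 for LOXL2, 0.43 for FBN1, 0.32 for ELN, 0.13 for LTBP1, 0.04 for MFAP5, -0.18 for FBN2 and -1.25 for the first MFAP2 entry. Comparisons against IL-6 share libraries with those above.

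Batch and treatment took different shares of the members' spread over the 24 libraries. Treatment held 64.0% of the sum of squares of the log2 level for MFAP5 and 59.6% for LOXL2. It held 36.3% for LTBP2, 27.9% for ELN and 17.5% for LOX. For FBN2 and LTBP1 it held 3.21% and 3.68%, and batch held 81.8% and 74.5%. Batch also held 70.1% for LOX, 69.9% for MFAP2 from both entries and 53.5% for ELN. It was the largest share for LOXL1, LTBP2 and FBN1 too. Treatment was the largest share only for MFAP5 and LOXL2.

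**Figure D5:**
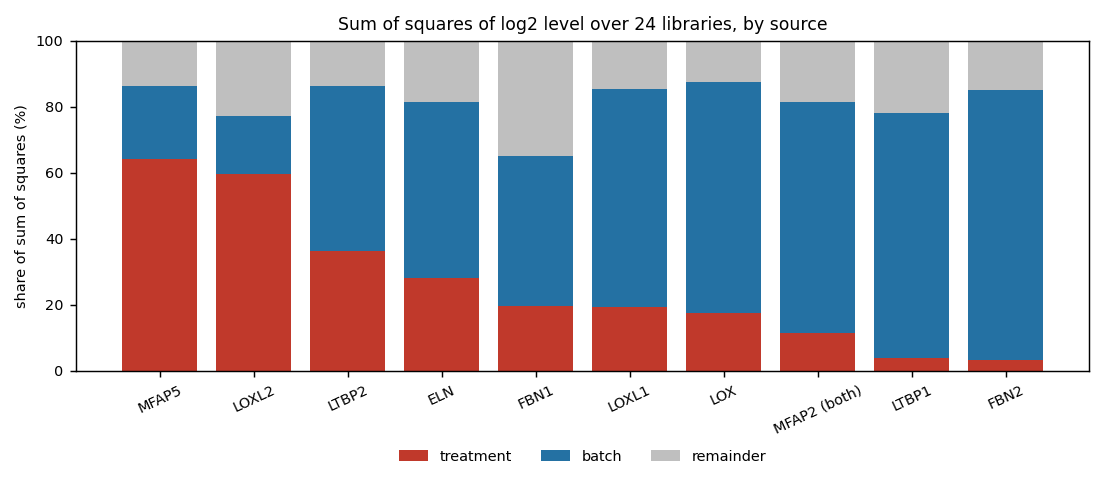
Share of the sum of squares of each gene's log2 level over 24 libraries that lay between treatments, between batches and in the remainder, in percent, with genes ordered by the treatment share. MFAP5 and LOXL2 have the largest treatment shares and FBN2 the smallest.

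After batch means were removed, the members' levels mostly followed one another. The median Pearson correlation over all pairs of members was 0.67 over 24 libraries and 0.64 without batch 2. FBN1, LOXL1 and LOXL2 had the highest medians with the other members (0.83, 0.80 and 0.80). FBN2 had 0.30 and the first MFAP2 entry -0.18. Over 14081 genes, those most like MFAP5 by the same measure were KRT7 (0.95), ANKRD1 (0.94) and C5orf46 (0.93). Those most like LOXL2 were COL11A1 (0.97), GASK1B (0.96) and PTGFRN (0.96), and like LTBP2 they were LIF (0.97), GXYLT2 (0.97) and ITGAV (0.96). The genes most like ELN were COL5A1 (0.92), PTGFRN (0.90) and FRMD6 (0.89), and like LOX they were WNT5A (0.89), MMP2 (0.88) and LIMS1 (0.88). FBN1 was closest to MICAL2 (0.97), PXDN (0.96) and IL4R (0.95), and LOXL1 to PTK7 (0.98), ITGB1 (0.98) and GALNT2 (0.97). LTBP1 was closest to COL8A1 (0.94), TIMP2 (0.93) and SAMD4A (0.93), and FBN2 to TMTC1 (0.93), TLN1 (0.92) and SLC12A4 (0.92). For the first MFAP2 entry they were RAC3 (0.72), ELOC (0.72) and CALM2 (0.71). The points share batches, treatments and the 2 Vehicle libraries that stood apart, and these correlations are descriptions only.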

How the data were processed

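The authors deposited raw read counts per gene for 24 polyA RNA libraries, 36468 entries of which 13161 are unnamed loci. Per the labels, adapters were trimmed, reads aligned and features counted, and the submitters' processing notes name Trimmomatic 0.30 and GRCh38.p14. The aligner, counter, annotation release and strand setting are not given in the sources used here. Library totals of 33342682 to 39817784 counts leave counting error small for every member except MFAP5.

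Counts were analysed in R 4.3.3 with edgeR 4.0.16 (TMM scaling, robust quasi-likelihood F test, batch plus treatment, Benjamini-Hochberg adjustment over all entries with a total of at least 10). Comparisons that leave out IL-6 used the 18 libraries of the other groups, and comparisons with IL-6 used all 24. A call needed an adjusted p under 0.05 together with a log2 fold change past 1. Levels are counts divided by DESeq2 1.42.0 size factors, on the log2 scale with 1 added. The fits were tested on simulated data. Per-kilobase levels use the MANE transcript length of the GENCODE annotation. Batches are the labels' batches of 1 cell line, so p-values measure only the spread between these libraries.

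The labels give the batch of each library, which pairs the groups and is a term of the model. As a check, residuals after group means correlated at a median of 0.71 in 36 library pairs of 1 batch (lowest -0.05) and -0.18 in 240 pairs of different batches.

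The rule for named genes takes the 10 members, given by counts and ranges where not given singly, the neighbouring elastic fibre genes with an adjusted p under 0.05, or otherwise the 3 with the smallest p, and the 3 genes most like each member. The members and the lists of neighbours, latent TGF-β genes, response genes and cell type markers were chosen with earlier results of these data known. Alternatives were another scaling, no filter, DESeq2, 1 entry per symbol, no batch term, each batch left out, all 24 libraries and, chosen after seeing the data, entries of a symbol summed and batches 2 and 4 left out. Some genes of the response and marker lists are not reported here.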

Additional observations from a re-analysis of the deposited data

Results flagged for a closer look

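Of 100 sets of 6 values (levels in a group, or within-batch differences, for each member), 7 held 1 value far from the other 5 by Dixon's test at its 95% critical value. Chance flags about 1 in 20 such sets, and the causes were not tested. The first MFAP2 entry gave within-batch log2 differences of -3.03 with TGF-β and -3.20 with IL-4+IL-13 against Vehicle in batch 2, while the other 5 batches ran from -0.08 to 1.19 and from 0.03 to 1.85. In batch 2 the normalized count of this entry was 1532 in Vehicle, 1489.97 with IL-6, 186 with TGF-β and 166 with IL-4+IL-13, and the log2 differences from IL-6 were -2.99 with TGF-β and -3.16 with IL-4+IL-13. In Vehicle, batch 1 stood above the other batches in log2 level for ELN (14.88, others 13.42 to 13.94), LOX (13.16, others 11.28 to 11.88) and LOXL1 (13.13, others 11.09 to 11.76). Between TGF-β and IL-6, the difference of LOXL1 was 0.76 in batch 1 (others 0.25 to 0.35), and that of LTBP1 was -0.52 in batch 5 (others 0.11 to 0.43).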

How the results depend on the processing

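Over 810 recomputed log2 fold changes of members, 751 kept their direction and their side of the threshold, 19 lost and 3 gained the threshold and 37 changed sign. Most of the 810 had no call in the main fit and so none to lose. The 19 losses fall on the few calls, which were 2 for IL-4+IL-13 against Vehicle, 3 for TGF-β against IL-4+IL-13 and 1 for IL-4+IL-13 against IL-6. The sign changes were in values that had passed no test. All 280 recomputed group levels moved by less than 1 SD. Most of them leave out 1 of 6 batches, which cannot move a mean that far, so this is no test of the levels. Without the replicate block (batch term), 0 members were called in IL-4+IL-13 against Vehicle, TGF-β against IL-4+IL-13 and IL-4+IL-13 against IL-6, and genes called were 0 for TGF-β and 9 for IL-4+IL-13 against Vehicle, 23 for TGF-β against IL-4+IL-13, 0 for TGF-β against IL-6 and 13 for IL-4+IL-13 against IL-6. DESeq2 called 117, 170, 444, 120, 248 and 255 genes, in the order TGF-β against Vehicle, IL-4+IL-13 against Vehicle, TGF-β against IL-4+IL-13, IL-6 against Vehicle, TGF-β against IL-6 and IL-4+IL-13 against IL-6. The fit of edgeR called 6, 72, 257, 0, 9 and 82. For TGF-β against Vehicle 13 genes were called with 1 entry per symbol, 14 with entries summed, 42 with all 24 libraries and 1 without batches 2 and 4. For IL-4+IL-13 against Vehicle 109 genes were called with all 24 libraries, and without a filter 1 member was called, MFAP5.

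With each batch left out in turn, which leaves fewer libraries, genes called ran from 0 to 8 for TGF-β against Vehicle, 20 to 81 for IL-4+IL-13 against Vehicle, 84 to 315 for TGF-β against IL-4+IL-13, 0 to 22 for TGF-β against IL-6 and 52 to 109 for IL-4+IL-13 against IL-6. Members called ran from 0 to 3 for IL-4+IL-13 against Vehicle (MFAP5, LOXL2 and LTBP2 without batch 4) and from 1 to 3 for TGF-β against IL-4+IL-13 (MFAP5 alone without batch 5). Log2 fold changes that crossed 0 ran, against Vehicle, from -0.65 to 0.43 (MFAP2) and -0.12 to 0.19 (LTBP1) with TGF-β, and from -0.12 to 0.19 (LOX) with IL-4+IL-13. With IL-6 against Vehicle they ran from -0.43 to 0.12 (FBN1), -0.23 to 0.018 (FBN2), -0.095 to 0.17 (ELN), -0.11 to 0.11 (LOX), -0.20 to 0.0083 (LOXL1) and -0.24 to 0.10 (LTBP1). Against IL-6 they ran from -0.10 to 0.17 (MFAP5) with TGF-β, and from -0.10 to 0.10 (FBN2), -0.058 to 0.16 (LOX) and -0.76 to 0.29 (MFAP2) with IL-4+IL-13.

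MFAP2 entries summed gave 0.15 (TGF-β) and -0.17 (IL-4+IL-13) against Vehicle, 0.32 for TGF-β against IL-4+IL-13 and 0.10 for TGF-β against IL-6. Without batches 2 and 4, MFAP2 was 0.56 with TGF-β against Vehicle and 0.36 for IL-4+IL-13 against IL-6, LOX -0.0029 with IL-4+IL-13 and 0.059 with IL-6 against Vehicle and -0.065 for IL-4+IL-13 against IL-6, FBN1 0.022 with IL-6 against Vehicle, and MFAP5 -0.013 for TGF-β against IL-6. Without the replicate block LOX was -0.056 with IL-4+IL-13 against Vehicle and -0.040 against IL-6. With 1 entry per symbol FBN2 was 0.00032 for IL-4+IL-13 against IL-6. The causes were not tested. Depth limits MFAP5 most, with 5 to 140 counts a library.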
